A study of Arabidopsis thaliana with 36 samples.

Results

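ndhH is the plastid gene for NdhH, a subunit of the chloroplast NADH dehydrogenase-like (NDH) complex. It was 1 of 113 plastid genes measured, and it was chosen by its log2 ChIP to input values in the Night and Day libraries, where the difference between Night and Day was the largest of all genes and the gene changed its side of input. All values of ndhH in the Night and Day libraries are therefore a description and carry no test, while the seedling libraries played no part in the choice. ndhH (ArthCp080, protein coding) covers positions 122011 to 123192 of the Arabidopsis thaliana plastid sequence, which is 1182 bp. A gap of 1 bp parts it from ndhA on one side, and a gap of 103 bp from rps15 on the other.

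The binding signal came from plastid chromatin immunoprecipitation (ptChIP), in which proteins are crosslinked to DNA with formaldehyde, 1 protein is recovered with an antibody and the DNA that comes with it is sequenced. Input libraries are the same kind of DNA without that selection. Night libraries came from leaves of 14-day-old Col-0 plants grown on soil and kept for 24 h in darkness, and Day libraries came from such plants 2 h into their light period. In both, the antibody was against RpoB, the beta subunit of the plastid-encoded RNA polymerase (PEP). Seedlings were 4 days old, raised on plates in continuous light and pooled by 50, and belonged to the lines sig2-2, chl27, chlm and Col0. The line sig2-2 is mutated in SIG2, whose product is a sigma factor that guides PEP to promoters, and chl27 and chlm are mutated in enzymes of chlorophyll synthesis. For seedlings the labels give no antibody, and their genotype entry is wild type in each line. The lines follow the titles and the cell line entries, and 1 title spells sig2-2 as "sig22-". Each of the 6 plant groups had 3 ChIP and 3 input libraries, so 36 libraries in 12 groups were used. Nothing says that replicates came from separate cultures, so p-values measure the spread between these samples, which may be technical.

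In chloroplasts the NDH complex sits in the thylakoid membrane beside photosystem I and takes part in cyclic electron flow and in the reduction of the plastoquinone pool in darkness. Its plastid-encoded subunits are the products of the ndh genes, and the others are encoded in the nucleus. ndhH is read towards ndhA, as part of a transcription unit that goes on through ndhA, ndhI, ndhG, ndhE, psaC and ndhD, so the border with ndhA is the downstream end of ndhH. Transcripts of plastid units are usually processed into shorter RNAs after transcription, and a ChIP signal reports polymerase on the DNA and not the amount of RNA.

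Mean coverage per position ran from 102 to 480 in Night ChIP libraries, from 425 to 1039 in Day ChIP libraries, from 1017 to 1395 in leaf inputs and from 1132 to 3165 in seedling libraries. Night ChIP thus held the 2 shallowest leaf libraries. Over ndhH itself the mean coverage was 201, 951 and 301 reads in Night ChIP replicates 1, 2 and 3 and 176, 415 and 259 reads in Day ChIP replicates 1, 2 and 3. The part of depth in the difference between Night and Day was not tested. The spread between replicates, as the SD of log2 ratios over 1 kb bins, was 0.0793 to 0.454 in ChIP and 0.0374 to 0.144 in input.

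Coverage of ndhH was above the plastid average in Night ChIP and far below it in Day ChIP. Relative coverage, the mean coverage of the gene divided by the mean of the plastid genome in the same library, was 1.97, 1.98 and 1.28 in Night ChIP replicates 1, 2 and 3. In Night input it was 1.11, 1.05 and 1.09. In Day ChIP replicates 1, 2 and 3 it was 0.415, 0.3996 and 0.337, and in Day input it was 1.10, 1.04 and 1.14. All 3 Night ChIP libraries were above, and all 3 Day ChIP libraries below, every leaf input library. Night and Day inputs overlapped each other, with a mean log2 difference of Night minus Day of -0.01.

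Enrichment is the log2 difference between a ChIP library and the average of its group's inputs, so 0 is the level of input and 1 is 2-fold above it. ndhH had an enrichment of 0.86, 0.87 and 0.24 in Night libraries, with a mean of 0.66 ± 0.36 (SD, n = 3). In Day libraries its enrichment was -1.40, -1.45 and -1.70, with a mean of -1.51 ± 0.16 (SD, n = 3). The groups did not overlap, and Night replicate 3 stood below the other Night libraries. Among the 113 genes ndhH ranked 28 by enrichment in Night and 73 in Day. The change in enrichment, Night minus Day, was 2.17 for ndhH, beside 2.15 for the gene next in order, rps12, a ribosomal protein gene. The changes after these were 1.88 for rps7 and 1.87 for rps15, both also for ribosomal proteins. The median gene changed by 0.53. When each library was centred on its median gene, which moves the median change by -0.55, the change of ndhH was 1.62, and when libraries were scaled to the coverage that neither inverted repeat nor rRNA operon holds, it was 1.73. It ranked 1 under both. Without 100 bp at each end of the gene, the change of ndhH was 2.14 and ranked 2.

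**Figure D1:**
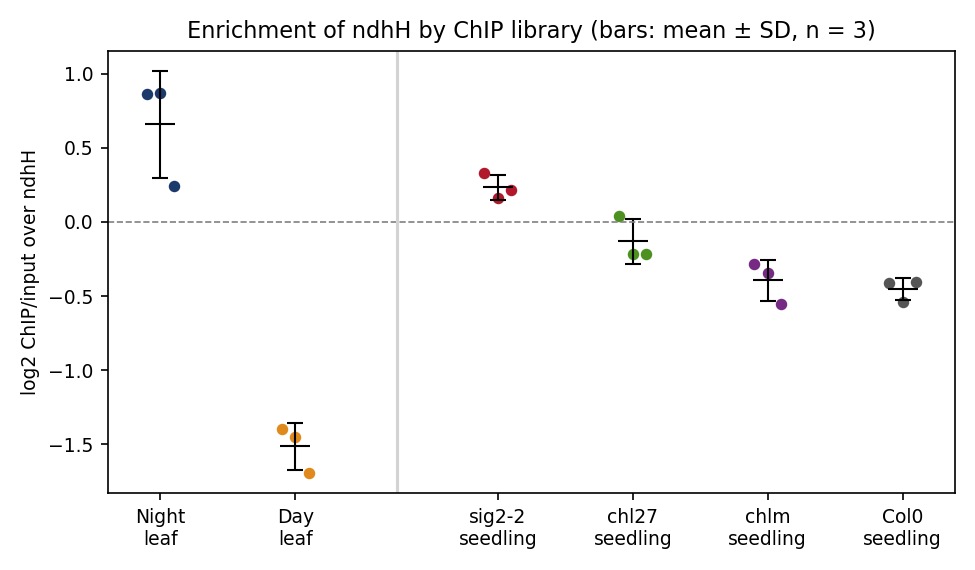
Enrichment of ndhH as log2 ChIP/input over the whole gene, with 1 point for each ChIP library in 6 plant groups and bars for the mean and SD of 3 libraries. Night points lie between 0.24 and 0.87 and Day points between -1.70 and -1.40, while the seedling groups descend from sig2-2, with all points above 0, to Col0, with all below.

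Within ndhH the signal was 1 narrow peak at the border with ndhA. The position of highest coverage in the gene lay between 122076 and 122082 in all 18 ChIP libraries, which is 65 to 71 bp into ndhH from the ndhA side. The peak was 167 to 229 bp wide at 50% of its height. Its summit therefore sat in the same place in leaves and seedlings, in light and darkness and in all 4 seedling lines. In background terms, this is the downstream end of ndhH and lies just before the start of ndhA.

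At the summit, coverage was 10.8, 12.05 and 6.06 times the plastid mean in Night ChIP replicates 1, 2 and 3. It was 2.06, 2.06 and 1.83 times the plastid mean in Day ChIP replicates. Night replicate 3 thus had a lower summit than the other Night libraries and a higher one than any Day library. In the 50 bp window with the highest enrichment, positions 122051 to 122100, enrichment was 3.04 ± 0.54 in Night and 0.74 ± 0.11 in Day (SD, n = 3 each). Of the 2591 windows of 50 bp along the plastid sequence, counting 1 copy of the inverted repeat, that window ranked 16 in Night and 418 in Day. Day ChIP was above input in this window in 3 of 3 libraries, although the gene as a whole was below input in the same libraries.

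**Figure D2:**
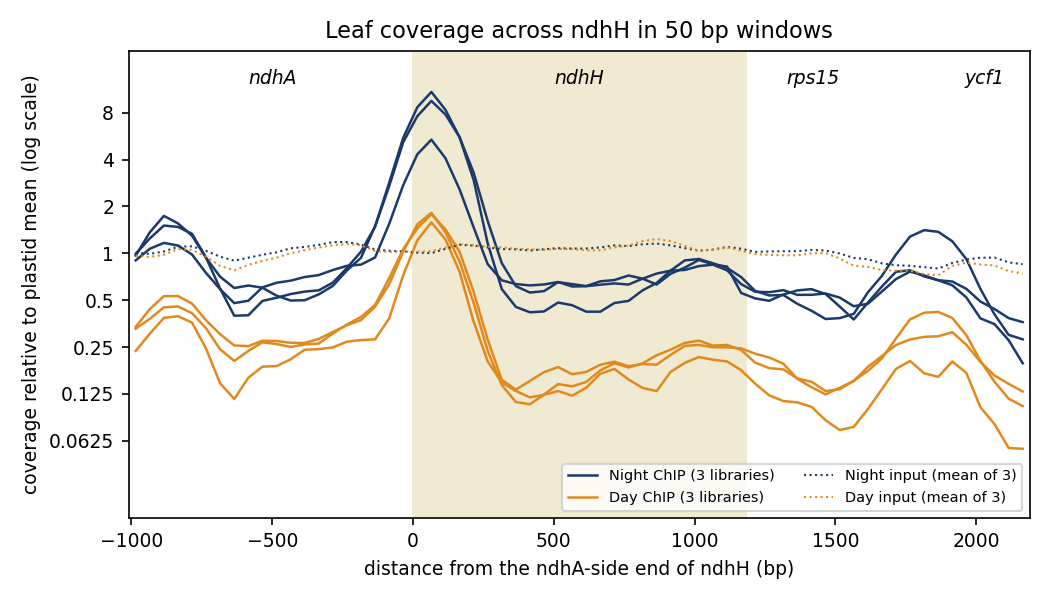
Coverage relative to the plastid mean, on a log axis, in 50 bp windows from 1 kb on the ndhA side to 1 kb on the rps15 side of ndhH (shaded), with solid lines for single ChIP libraries and dotted lines for input means. Night and Day share a peak at the ndhA border, and the Night lines lie above the Day lines over the whole of ndhH.

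To describe the peak and the rest apart, the run of windows around the summit with a mean Night enrichment above 0 was taken as the junction segment. It was chosen after the values were seen and spans positions 121851 to 122300, 450 bp, of which 290 bp lie in ndhH. These 290 bp are 24.5% of the gene and held 23.5% to 26.2% of the gene's coverage in the 18 input libraries. In Night ChIP they held 73.2%, 77.1% and 59.3% of it, and in Day ChIP 63.8%, 64.1% and 64.5%. In seedling ChIP the shares were 45.1% to 50.3% in sig2-2 and 41.3% to 58.6% in chl27. They were 53.7% to 59.9% in chlm and 53.2% to 57.2% in Col0. The highest chlm share lay above that of Night replicate 3, so seedling and Night libraries overlapped. Because the segment was chosen on Night values, which favours a high Night share, these shares do not rank the groups.

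In the ndhH part of the segment, enrichment was 2.45, 2.54 and 1.53 in Night libraries and -0.01, -0.06 and -0.30 in Day libraries. Over the other 892 bp of the gene it was -0.63, -0.85 and -0.65 in Night libraries and -2.46, -2.52 and -2.78 in Day libraries. Since the segment was taken as the windows above 0 in Night, the low Night value of the rest follows from that choice and is no separate result. Night was above Day in both parts without overlap. The change, Night minus Day, was 2.30 in the segment and 1.87 in the rest, and 2 of the 112 other genes had a whole-gene change above 1.87. Most 50 bp windows of the plastid sequence were higher in Night, since their median change was 0.86. So were 24 of 24 ndhH windows, which hold the leaf values that chose the gene and so add no support. Their changes ran from 1.48 in the window starting at 123151 to 2.40 in that starting at 122201, with a median of 1.96, beside a median of 0.86 over all windows. Of these 24 windows, 9 were among the 100 windows of the plastid sequence with the largest change. Over the 1 kb flanks the change was smaller, at 1.61 on the ndhA side and 1.61 on the rps15 side.

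**Figure D3:**
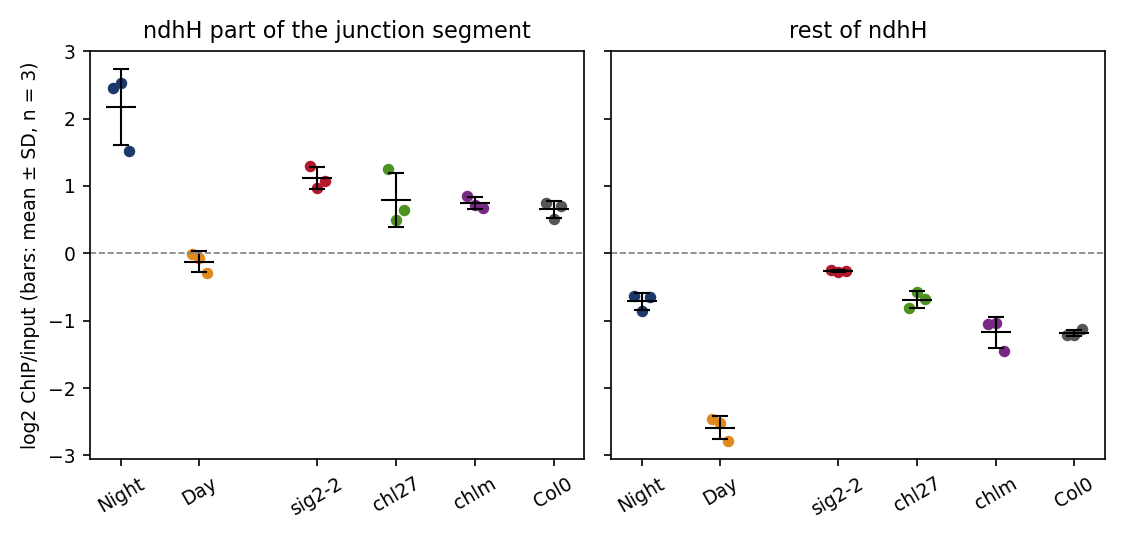
Enrichment as log2 ChIP/input in the 290 bp of ndhH inside the junction segment (left) and in the remaining 892 bp (right), by ChIP library, with bars for mean and SD of 3. On the right the 12 seedling libraries lie below 0, from -0.26 on average in sig2-2 to -1.18 in Col0, and on the left they lie above it.

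Smaller rises of the Night profile lay within and around the gene. One was in ndhA, at 121101 to 121150, with an enrichment of 0.50 in Night and -1.12 in Day. Another lay inside ndhH near the rps15 end, at 123001 to 123050, with -0.23 in Night and -2.06 in Day. A further one lay in the flank beyond rps15, at 123801 to 123850, with 0.14 in Night and -1.40 in Day. These Night values were far below the 3.04 of the junction window.

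The genes next to ndhH were also higher in Night, but none of them was above input. Across all genes, limma called 70.8% in the Night minus Day change, 58.4% as higher and 12.4% as lower (adjusted p under 0.05). Centring each library on its median gene turned this split into 35 higher and 37 lower genes, against 66 and 14. All 8 genes of the transcription unit and its surroundings (ndhA, ndhI, ndhG, ndhE, psaC, ndhD, rps15 and ycf1) were called higher, with a median change of 1.29, and 6 of 8 were after centring. Their enrichment in Night was called below input in 8 of 8, where 53.1% of all genes were. After centring it was in 5 of 8, where 47 of the 113 genes were. In Day, without centring, it was below input in 8 of 8, where 59.3% of all genes were. ndhA, which codes for a membrane subunit of the complex and holds the other side of the junction segment, averaged -0.41 in Night and -1.91 in Day. rps15, for a protein of the small ribosomal subunit, averaged -1.03 in Night and -2.90 in Day. Within this stretch of the genome ndhH was thus the gene with a Night mean above input.

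Each library also gives the difference between ndhH and the mean of ndhA and rps15 in itself, which does not depend on how libraries are scaled. Over input, this difference was 1.38 ± 0.37 in Night and 0.89 ± 0.17 in Day (SD, n = 3 each), and the groups overlapped. With the 1 kb flanks in place of the neighbouring genes it was 0.92 ± 0.24 in Night and 0.36 ± 0.22 in Day, without overlap. Averaged over the whole gene, ndhH therefore exceeded its neighbours in darkness and in light. Its part outside the junction segment, which was chosen on Night values, averaged -0.71 in Night and -2.59 in Day. That was below ndhA (-0.41 and -1.91) and above rps15 (-1.03 and -2.90).

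The other 10 ndh genes moved in the same direction. That they moved by less follows from the choice of ndhH for the largest change and is no result. All 10 were called higher in Night than in Day by limma, where 58.4% of all genes were. After centring 7 were, where 35 of the 113 genes were. Before centring, the median change of the 10 was 1.08, from 0.53 in ndhJ to 1.65 in ndhB. Compared with input, 1 of the 10 was higher in Night, ndhC at 0.25, and 8 were lower, where 35.4% and 53.1% of all genes were. After centring 2 were higher and 3 lower, where 51 and 47 of the 113 genes were. Scaled outside the inverted repeats 0 were higher and 8 lower, where 37 and 62 of the 113 genes were, so the call of ndhC was lost. In Day none was higher and 10 were lower, where 33.6% and 59.3% of all genes were. ndhJ and ndhK, which form a cluster with ndhC far from ndhH, averaged 0.17 and -0.35 in Night against -0.37 and -1.39 in Day. ndhF, read by itself at another place, averaged -0.33 in Night and -1.40 in Day.

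**Figure D4:**
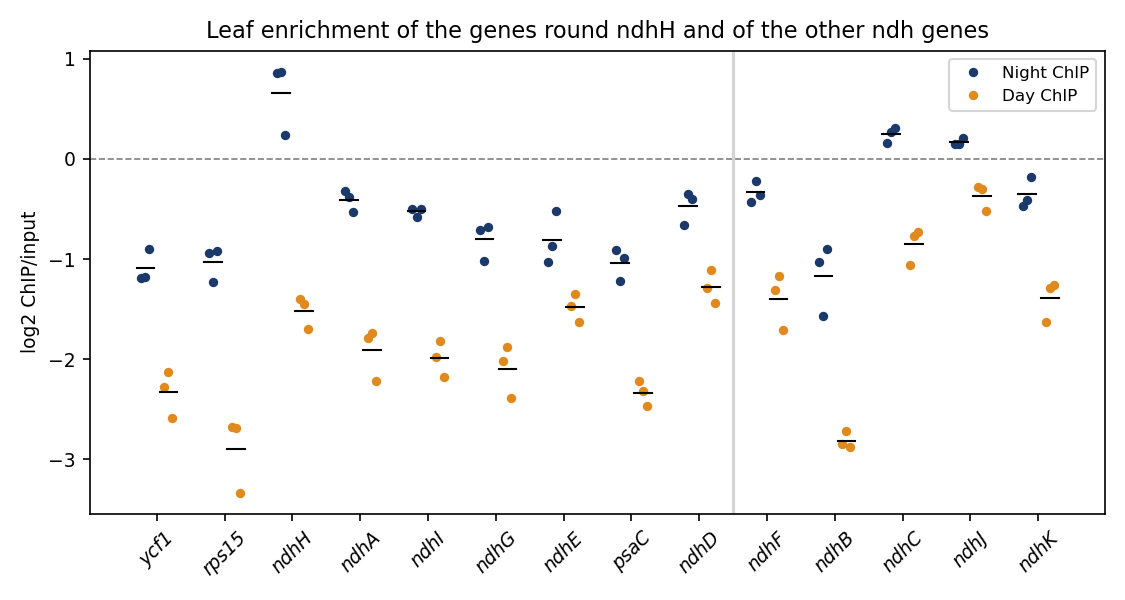
Enrichment as log2 ChIP/input of ndhH, its neighbours in genome order (left of the grey line) and the other ndh genes (right of it), with 1 point per leaf ChIP library and dashes for means of 3. ndhH has the highest Night mean and the 2 highest Night points, while its Night replicate 3 (0.24) lies below 2 points of ndhC, and its Day points lie among those of the other genes.

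In seedlings, the mean signal of ndhH was highest in sig2-2, then in chl27, and lowest in chlm and Col0, which overlapped. Relative coverage in ChIP was 1.29, 1.15 and 1.195 in sig2-2, with 1.05, 1.02 and 1.02 in its inputs. It was 1.10, 0.918 and 0.920 in chl27 ChIP, with 1.09, 1.06 and 1.05 in input. In chlm ChIP it was 0.892, 0.854 and 0.742, with 1.10, 1.09 and 1.07 in input. In Col0 ChIP it was 0.831, 0.762 and 0.838, with 1.10, 1.11 and 1.11 in input. Only sig2-2 ChIP lay above its own inputs in all 3 libraries, and sig2-2 ChIP did not overlap Col0 ChIP.

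Against input, ndhH was higher in sig2-2 by 0.23 ± 0.07 (log2, SE; limma adjusted p = 0.00311), in 3 of 3 libraries. In chl27 the difference was -0.13 ± 0.07 and did not pass the test (limma adjusted p = 0.0822), with 1 of 3 libraries above input, while without chl27 ChIP replicate 1 it was -0.22 and passed (limma adjusted p = 0.00302). ndhH was lower than input in chlm by a log2 difference of -0.39 ± 0.07 (limma adjusted p = 2.75e-06) and in Col0 by -0.45 ± 0.07 (limma adjusted p = 1.96e-07), in 3 of 3 libraries of each. Such calls were common, since 83.2% of all genes were called in sig2-2 (31.9% as higher), 89.4% in chl27, 91.2% in chlm and 92% in Col0. After centring each library on its median gene, ndhH was above input in chl27 (0.24), chlm (0.20) and Col0 (0.081), with limma adjusted p of 0.00614, 0.0188 and 0.320. The side on which ndhH falls also depends on the peak: without 100 bp at each end of the gene, sig2-2 was at -0.036 (limma adjusted p = 0.643). Over the 892 bp outside the junction segment the mean enrichment was -0.26 ± 0.01 in sig2-2, -0.69 ± 0.12 in chl27, -1.17 ± 0.23 in chlm and -1.18 ± 0.05 in Col0 (SD, n = 3 each). In the 290 bp inside it the mean was 1.12 ± 0.17 in sig2-2, 0.80 ± 0.40 in chl27, 0.75 ± 0.09 in chlm and 0.65 ± 0.12 in Col0.

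The difference between lines was tested directly, as the change of ChIP minus input against Col0. It was 0.69 ± 0.10 in sig2-2 (log2, SE; limma adjusted p = 1.31e-07), and every sig2-2 library was above every Col0 library. After centring each library on its median gene it was 0.35 (limma adjusted p = 0.00551). ndhH ranked 34 among 113 genes by this change, the median gene changed by 0.36, and 86.7% of genes were called, 53.1% as higher. In chl27 the change was 0.32 ± 0.10 (limma adjusted p = 0.00904), again without overlap with Col0, with a rank of 37, a median gene of 0.16 and 54% of genes called, 40.7% as higher and 13.3% as lower. These were 46 higher and 15 lower genes, against 35 and 28 after centring and 35 and 25 when scaled outside the inverted repeats. In sig2-2 they were 60 and 38, against 50 and 50 after centring. The chl27 change did not pass when libraries were centred on their median gene (0.16, limma adjusted p = 0.213) or scaled outside the inverted repeats (0.21, limma adjusted p = 0.0543). In chlm the change was 0.06 ± 0.10 (limma adjusted p = 0.978). For chlm, limma called 0% of genes, and 8 of 113 had an unadjusted p under 0.05. The rise of ndhH in sig2-2 and chl27 was thus above the median gene but not among the largest of the genome.

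Windows were used to follow the seedling values along the gene. limma on 50 bp windows called 4 of the 24 ndhH windows as higher than input and 14 as lower in sig2-2, where 18.5% and 62.6% of all windows were. In chl27 it called 4 higher and 19 lower (23.2% and 70.1% of all windows), in chlm 4 and 20 (23.7% and 71.5%) and in Col0 4 and 20 (22.9% and 71.4%). In each of the lines the higher windows were those from 122001 to 122200, at the ndhA border. The highest window was 122051 to 122100 in every group, as in leaves, with an enrichment of 1.86 ± 0.23 in sig2-2, 1.48 ± 0.46 in chl27, 1.51 ± 0.07 in chlm and 1.46 ± 0.14 in Col0 (SD, n = 3 each). It ranked 15 of 2591 in sig2-2 and 277 in Col0. By its change in sig2-2 against Col0, however, it ranked 1665, with 0.39 beside a median of 0.62 over all windows.

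Compared with Col0, 23 of the 24 windows were higher in sig2-2, where 69.4% of all windows were, and the window not called was that of the summit (0.39 ± 0.19, SE; limma adjusted p = 0.0545). The largest change was 1.06 ± 0.15 in the window from 122451 to 122500 (limma adjusted p = 2.51e-07), in the low stretch beyond the peak. In chl27, 20 windows were higher than in Col0, where 50.2% of all windows were, and they ran without a gap from 122201 to 123200. The 4 windows not called in chl27 were those of the peak, with a change of 0.01 ± 0.19 at the summit (SE; limma adjusted p = 0.961). In chlm none of the 24 windows was called (0% of all windows), and 0 of the 24 had an unadjusted p under 0.05. In 100 bp windows, 12 of 12 were called higher in sig2-2, where 69.7% of all such windows were, and 10 of 12 in chl27, where 51.8% were, so the summit of sig2-2 passed at that width. The mean change in sig2-2 was 0.47 inside the segment and 0.92 outside it, and in chl27 0.14 and 0.50. Over the 1 kb flanks on the ndhA and rps15 sides it was 0.81 and 0.85 in sig2-2, and 0.33 and 0.52 in chl27. The rise was thus not confined to ndhH. The Night minus Day values of 2.30 inside and 1.87 outside cannot be set against the seedling values of these parts, because the segment was chosen on Night values.

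**Figure D5:**
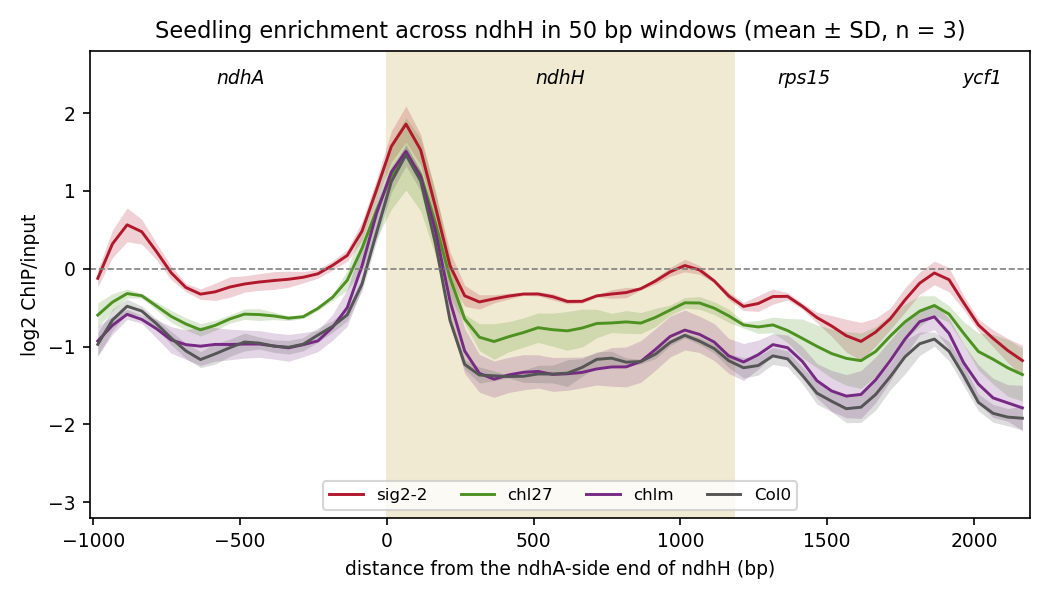
Enrichment as log2 ChIP/input in 50 bp windows across ndhH (shaded) and 1 kb on each side in the 4 seedling lines, as lines for the mean and bands for the SD of 3 libraries. All 4 lines share the peak at the ndhA border, where the sig2-2 mean (1.86) lies above the others (1.46 to 1.51), and beyond it sig2-2 is highest, chl27 next, and chlm and Col0 lie together.

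Against its neighbours within a library, ndhH averaged over the whole gene stood out in every seedling line. Its part outside the junction segment had a mean enrichment below that of ndhA and above that of rps15 in each line. In Col0 that part was at -1.18, ndhA at -0.98 and rps15 at -1.38. The log2 difference between ndhH and the mean of ndhA and rps15 was 0.51 ± 0.08 in sig2-2 ChIP and -0.08 in its input, 0.58 ± 0.26 in chl27 ChIP and -0.03 in its input, 0.65 ± 0.10 in chlm ChIP and -0.02 in its input, and 0.64 ± 0.03 in Col0 ChIP and -0.08 in its input (SD, n = 3 each). ChIP and input did not overlap in any line, and the two-sided exact permutation p was 0.1 in each, the smallest that 3 against 3 libraries allow (0.14 after adjustment over 7 tests). Over input, the difference was 0.59 in sig2-2 against 0.73 in Col0, with an exact permutation p of 0.1 (adjusted 0.14). It was 0.61 in chl27 (exact permutation p = 0.4) and 0.66 in chlm (exact permutation p = 0.6), against the same Col0 value. The mean of no line was thus above that of Col0, and the higher ndhH of sig2-2 and chl27 stood beside higher neighbours.

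Those neighbours and the other ndh genes were counted in the same way. In sig2-2 against Col0, limma called 8 of 8 unit and neighbour genes higher (53.1% of all genes), with a median change of 0.75, and 7 of the 10 other ndh genes higher and 1 lower (33.6% of all genes), their median being 0.64. The lower gene was ndhC, at -0.34, and centring gave 6 higher and 3 lower of the 10, beside 50 and 50 of the 113 genes. In chl27, 7 of 8 and 6 of 10 were higher (40.7% of all genes), with medians of 0.45 and 0.36. In chlm 0 of 8 and 0 of 10 were called, and none had an unadjusted p under 0.05. In the 8 unit and neighbour genes, ChIP was called below input in 8 of 8 in each line. Of all genes, 51.3% were called below input in sig2-2, 54% in chl27, 56.6% in chlm and 55.8% in Col0. Under the main scaling, ndhH of sig2-2 was thus the one called value above input in this stretch. After centring, ndhH was also called above input in chl27 (0.24) and chlm (0.20). Without 100 bp at each end of the gene, ndhH of sig2-2 was at -0.036 and was not called.

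Over the mean enrichments of the 6 plant groups, the genes whose pattern was most like that of ndhH were clpP, for a subunit of the plastid Clp protease, with a Pearson r of 0.981, ndhF (0.956), psaI, for a small photosystem I subunit (0.956), ndhA (0.949) and ndhI (0.944). These r are over 6 points that share libraries and scaling with ndhH, and a large Night and Day contrast weighs on all of them. Their levels stood apart from those of ndhH by a root mean square of 0.54 to 0.76 on the log2 scale. In the order of Col0 enrichments ndhH ranked 56, between ndhK at -0.42 and psbE at -0.50, and neither neighbour lay farther from it than the SD of 0.08 between Col0 libraries of ndhH.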

How the data were processed

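The values were coverage signal, the number of reads over each of 154477 plastid positions, deposited by the authors as whole numbers without scaling to library size, in 1 leaf and 1 seedling table. The submitters' processing notes name Trim Galore 0.4.1, Bowtie2 2.2.8.9, bedtools 2.25.0 and the build TAIR10, and the header of the leaf table names TAIR10 too. Filters, duplicate handling and the placement of reads matching both inverted repeats were not given in the sources used here. Neighbouring positions share reads and how many reads stand behind a value is unknown, so neither count models nor counting intervals were used.

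Gene spans were taken from RefSeq (assembly TAIR10.1). Annotated repeat genes mirror about a position sum of 238649, and the coverage mirrored about the same sum within 1 bp, which is the check that the spans apply to the tables. Of 129 entries, 1 repeated span was removed and 15 repeat pairs were merged, which left 113 genes. The table gives no strand, and the direction of transcription is background knowledge.

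For each library, mean coverage of a gene or 50 bp window was divided by the plastid coverage total, scaled to 1000000 per kb, and log2(value + 1) was taken. Comparisons used limma 3.58.1 in R 4.3.3 (group means, eBayes with a trend), separately for the 12 leaf and the 24 seedling libraries, with Benjamini-Hochberg adjustment over 113 genes or 2591 windows and a threshold of 0.05. The fit was tested on simulated data. Exact permutation tests used scipy 1.17.1. Other software was pandas 2.3.3, numpy 2.4.6 and matplotlib 3.10.9 in Python 3.11.15.

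Alternatives were another scaling (median gene, or coverage outside repeats), pseudocounts of 0.1 and 10, genes of at least 300 bp, median coverage, gene ends trimmed by 100 bp, 100 bp windows, single libraries left out, a replicate block (by number, or by ChIP and input pair) and a fit on the compared groups alone. ndhH, the gene lists and the tests were chosen with earlier results of these data known. Named genes were ndhH, the transcription unit and its neighbours, the other ndh genes, the 5 genes most like ndhH in pattern, and genes next to it in rank.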

Additional observations from a re-analysis of the deposited data

Results flagged for a closer look

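The enrichment of ndhH differed between seedling groups under the same contrast of ChIP against input, by the limma test of the difference. sig2-2 minus Col0 was 0.69 and chl27 minus Col0 was 0.32 on the log2 scale. Of all genes, 86.7% were called in the sig2-2 contrast and 54% in the chl27 contrast. The chl27 call of ndhH was lost when libraries were centred on their median gene or scaled outside the inverted repeats. In leaves, all 3 Night libraries lay above input and all 3 Day libraries below it, with a difference of 2.17. This last difference was not tested, because it chose the gene. The test for an outlying sample needs groups of at least 4, so none was run on these groups of 3 libraries.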

How the results depend on the processing

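Median coverage put ndhH below input in Night (-0.62) and sig2-2 (-0.27), and gave -2.44 in Day, -0.66 in chl27, -1.17 in chlm, -1.14 in Col0, 1.83 for Night minus Day and -0.029 for chlm minus Col0. Trimming 100 bp at each end, which removes the summit, gave 0.14 in Night, -1.998 in Day, -0.036 in sig2-2, -0.41 in chl27, -0.77 in chlm and -0.82 in Col0. Outside the junction segment, an alternative chosen after seeing the data, the values were -0.71 in Night, -2.59 in Day, -0.26 in sig2-2, -0.69 in chl27, -1.17 in chlm and -1.18 in Col0, and the changes were 1.87 for Night minus Day, 0.92 for sig2-2 minus Col0 and 0.50 for chl27 minus Col0. By construction these 3 alternatives weigh the peak less. Centring on the median gene gave 1.05 in Night, -0.57 in Day, 1.62 for Night minus Day, 0.43 in sig2-2, 0.24 in chl27, 0.20 in chlm, 0.081 in Col0, 0.35 for sig2-2 minus Col0 and 0.16 for chl27 minus Col0. Scaling outside the repeats gave -1.12 in Day, 1.73 for Night minus Day, 0.35 in sig2-2, -0.024 in chl27, -0.23 in chlm, -0.24 in Col0, 0.59 for sig2-2 minus Col0 and 0.21 for chl27 minus Col0. Without single libraries, chl27 ChIP minus input ran from -0.22 to -0.087 and passed the test without its ChIP replicate 1 (-0.22, limma adjusted p = 0.00302). Night minus Day ran from 2.06 to 2.38, sig2-2 minus Col0 from 0.64 to 0.72 and chl27 minus Col0 from 0.24 to 0.37. The highest limma adjusted p was 1.67e-06 for sig2-2 minus Col0 and 0.0336 for chl27 minus Col0. Of 221 alternative values for the main comparisons, 191 were kept, 9 turned direction, 16 moved, 2 lost the call and 3 gained it. For tested seedling values of ndhH, kept meant the same direction and call. For leaf values and those outside the junction segment, it meant the same direction and a shift below the SD between ChIP libraries. For differences from neighbours only the direction had to match. Shares of windows called were judged by their ratio to the main share.

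Same-numbered libraries deviated together in 5 of 6 leaf and 7 of 12 seedling ChIP and input pairs (correlation over 0.1), and 5 of 6 and 8 of 12 ChIP libraries followed the input of their own number best. Same-numbered libraries of different plant groups passed 0.1 in 3 of 12 leaf and 39 of 72 seedling pairs. In leaves this hints at a link between ChIP and input of a number. In seedlings the share over 0.1 was near that of pairs from different groups. Not every ChIP and input pair passed 0.1, and the labels do not state a link, so the main values have no block. With the replicate number as a block, sig2-2 minus Col0 was 0.69 (limma adjusted p = 5.17e-09), chl27 minus Col0 was 0.32 (limma adjusted p = 0.00415) and chl27 ChIP minus input was -0.13 (limma adjusted p = 0.0565). With each ChIP and input of a number as a pair within its line, added after seeing the data, the same values had limma adjusted p of 7.99e-11, 0.00547 and 0.0767. Neither block changed a call for ndhH, and genes called for chl27 minus Col0 numbered 68 with the first block and 61 without.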
